A study of Daphnia magna with 48 samples.

Results

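Cadmium, a toxic metal, was set against 4 organic chemicals in young Daphnia magna, a freshwater water flea. The comparison took the 30 of 48 arrays that hold the experiments with cadmium, isobutanol, 3-chloropropanol, 2,3,4-trichloroaniline and 3,4-dichlorophenol, and all 6006 Daphnia probes were tested. The arrays were chosen by the exposure in the labels. The fit used all 48 arrays for the spread of each probe and for the dye effect. Aniline, 4-chloroaniline and 3,5-dichloroaniline were left out of the comparison but not of that fit. That choice was made with earlier results of these data known, and the 3 chemicals left out had 0, 2 and 0 called probes of their own, so the 4 organics stand for chemicals with a transcript response and not for organic chemicals at large.

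Per the labels, newborn animals spent 96 h in each chemical at the EC10, at which 10% of animals are immobilised. Each experiment had 3 exposed samples and 3 unexposed controls of its own, and each sample was the whole-body RNA of 30 pooled animals taken at day 4. The clone of Daphnia is not given in the sources used here. The labels give a renewal of the test medium every 48 h for the anilines and none for cadmium, the alcohols or the phenol, so by the labels 2,3,4-trichloroaniline differed from the other 4 chemicals in this condition too. In whole-body RNA a change in the share of a tissue and a change of RNA per cell cannot be told apart. The labels describe replicates as biological and do not say whether they came from separate cultures, so p-values measure the spread between these samples, which may be partly technical.

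Cadmium ions enter animal cells partly through calcium and zinc routes, bind to the thiol groups of proteins, and are bound in turn by metallothioneins, small cysteine-rich proteins. Isobutanol and 3-chloropropanol are short alcohols whose baseline toxicity, called non-polar narcosis, comes from dissolving in membranes. 2,3,4-Trichloroaniline and 3,4-dichlorophenol are chlorinated benzenes with an amino and a hydroxyl group and count as polar narcotics, which are more toxic than their membrane solubility alone predicts. The title of the series names these classes of narcotics and not the metal. The files do not pair probes with genes and no probe ID matched the RefSeq gene table for this species (0 matches), so probes are given by ID, and neither a gene nor a function can be put to them here.

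Values are the authors' normalized log2 ratios of sample over a common reference. An effect is the mean of the exposed arrays minus the mean of the controls of the same chemical, adjusted for the sample dye. It is given with its SE, which rests on a single spread per probe over all arrays of the fit. The SE of a probe is thus the same for every single chemical and does not show the spread of that chemical's own arrays. The mean organic effect weights the 4 organics equally, and the difference is the cadmium effect minus the mean organic effect. Calls were made at an adjusted p under 0.05 (limma, Benjamini-Hochberg over 6006 probes, two-sided). The direction of the ratios is likely sample over reference and is stated by no label: turning the sign would swap rises and falls and leave the numbers of calls as they are. Arrays of opposite dye in the same group of these 5 experiments correlated over probes at a median r of 0.58. Of 552 pairs of same-dye arrays in the series, 5 had r under -0.3, the lowest -0.41. The 3-chloropropanol arrays agreed unevenly. The correlation between control replicates 1 and 3 was 0.94, against 0.11 and 0.12 for each of them with control replicate 2. Exposed replicate 3 correlated at 0.28 and 0.24 with exposed replicates 1 and 2. In both groups the pair that correlated closely shared a dye. The 2,3,4-trichloroaniline controls also correlated weakly, at 0.24 (replicates 1 and 2), 0.42 (1 and 3, of the same dye) and 0.021 (2 and 3). The median residual SD of a probe was 0.20 in the 3-chloropropanol experiment and 0.11 to 0.13 in the other 4.

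Of the probes that cadmium changed, most changed the same way with the organics, and few separated the metal from them. The difference was called on 49 of 6006 probes (0.816%), 29 with a higher and 20 with a lower effect of cadmium. At an unadjusted p under 0.05 there were 402 probes, where chance gives 300.3. The 49 fell into 24 moved by cadmium only, 13 moved by the organics only, 4 moved in opposite directions and 8 moved the same way to an unequal extent. Of the 49, 24 differed by at least 1 on the log2 scale, which is a 2-fold difference. The typical 95% interval of a difference was ± 0.31, and the smallest called difference was 0.49 in size. The count was 28, 27 and 29 without cadmium control replicates 1, 2 and 3, and 26 and 24 without cadmium-exposed replicates 2 and 3, and 20 of the 49 were called whichever of the 30 arrays was left out. It was 553 with arrays weighted by their noise, 107 with arrays scaled to equal spread, and 10 and 7 within the Cy5 and the Cy3 arrays alone, so the number of probes depends strongly on the fit.

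**Figure D1:**
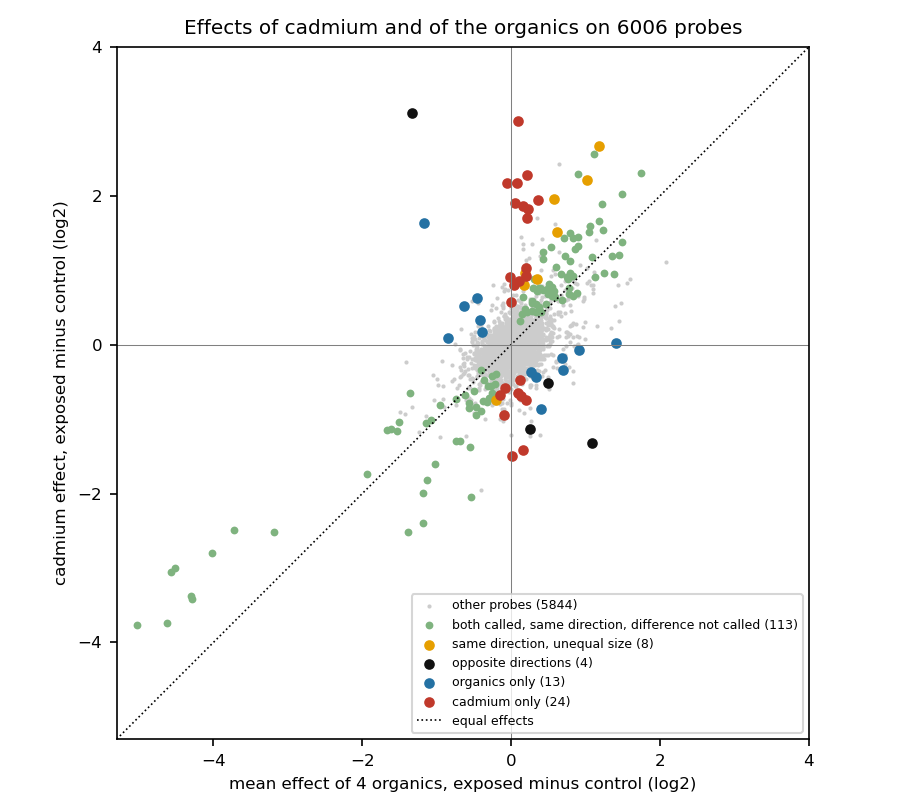
Cadmium effect (vertical axis, log2) against the mean effect of the 4 organics (horizontal axis, log2) for 6006 probes, each point a probe, with classes coloured and the dotted line marking equal effects. The 24 cadmium-only probes lie near 0 on the horizontal axis, the 13 organics-only probes near 0 on the vertical axis with exceptions, and the 113 green probes along the line.

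Tested by itself, cadmium raised 107 probes and lowered 70, which makes 177 (2.95%), and the mean organic effect was called on 991 (16.5%). The mean of 4 chemicals had a typical SE of 0.069 and the cadmium effect one of 0.14, so the organics could pass with smaller changes and these counts do not rank the responses. Of the 177, 125 were also called for the organic mean, 121 of them with the same sign. For 113 (63.8% of 177; 67 higher and 46 lower) the difference was not called, and for 28 cadmium was called while neither the organic mean nor the difference was. Of the 991, 853 (86.1%) had neither a called cadmium effect nor a called difference, so they belong to none of the classes. Isobutanol was called on 97 of the 177 (83 with the sign of cadmium), where 12.6% of all probes were called. 3-Chloropropanol was called on 80 (77 with the same sign; 8.72% of all probes), 3,4-dichlorophenol on 63 (62; 2.85%) and 2,3,4-trichloroaniline on 54 (50; 3.9%).

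Large falls occurred among these 113 probes, a class formed by calls on both sides with the same sign and no called difference. Taken after their values were seen, 9 of the 113 had a mean organic effect under -3, from -5.03 to -3.19, and cadmium effects from -3.76 to -2.49. The cadmium falls were smaller by 0.68 to 1.53, with SEs of 0.67 to 0.98, and the lowest limma adjusted p of these differences was 0.846. That both sides fell and no difference was called followed from how the 113 were chosen. An interval of up to ± 1.99 around such a difference covers both equal falls and falls that differ several-fold. Over all 6006 probes the cadmium effects correlated with the mean organic effects at r = 0.60 (Spearman 0.34), with 3-chloropropanol at 0.49, with 3,4-dichlorophenol at 0.48, with isobutanol at 0.45 and with 2,3,4-trichloroaniline at 0.36. Among the organics themselves r ran from 0.079 (3-chloropropanol and 2,3,4-trichloroaniline) to 0.60 (3-chloropropanol and 3,4-dichlorophenol), a range that takes in all 4 values for cadmium. These correlations are over probes, which are not independent, and the experiments share the array platform and the reference.

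The cadmium-only class held 24 probes (0.4%) on which cadmium and the difference were called and the organic mean was not. Cadmium moved 15 upward and 9 downward, with a median size of 0.99 (0.47 to 3.01). Their mean organic effects were at most 0.35 in size, and for 22 of 24 the 95% interval of the organic mean lay within 0.5 of 0. The same held for 5183 of all 6006 probes, so this does not set the class apart. A mean near 0 can hide organics that cancel. Of the 24, 12 had none of the 4 organics called on its own, against 4765 of all 6006 probes, so single organics were called more often here than over all probes. Among the 177 probes called for cadmium 45 had none, so single organics were called less often here than among those. Of the other 12 of the 24, 9 had 1 organic called and 3 had more. The F test for differences among the organics was passed by 8 of the 24 (33.3%). That share was 8.01% of all probes and 30.5% of the 177, so it is not particular to this class. Isobutanol was called on 9 of the 24 (12.6% of all probes), on 7 of these against the direction of cadmium. The pairwise difference from cadmium was called on 17 of the 24 for isobutanol (3.53% of all probes) and on 13 for 2,3,4-trichloroaniline (0.716%). For 3-chloropropanol it was called on 5 (0.533%) and for 3,4-dichlorophenol on 2 (0.133%). The order of these counts is also the order of the calls over all probes. Only 1 of the 24 was called against all 4 organics, while 12 were called against 1 organic and 2 against none. The class is thus set apart from the organic mean, and mostly not from each organic.

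Probe DM11286P2 had the largest difference in this class. Its ratios were 2.05, 2.34 and 2.79 in cadmium-exposed replicates 1 to 3 and -0.67, -0.45 and -0.75 in the controls, so the groups lay far apart. Cadmium raised it by 3.01 ± 0.25 (limma adjusted p = 1.89e-10), while the mean organic effect was 0.094 ± 0.13 (95% interval -0.16 to 0.35). The difference was 2.91 ± 0.28 (limma adjusted p = 2.68e-08). Behind that mean, the probe fell by 1.07 ± 0.25 with 2,3,4-trichloroaniline (limma adjusted p = 0.0117) and stood at -0.054, 0.67 and 0.83 with isobutanol, 3-chloropropanol and 3,4-dichlorophenol, none called. It is one of 3 probes in the table (0.05%) whose cadmium effect was called against each of the 4 organics separately. The difference was 2.94 among the Cy5 arrays alone and 2.85 among the Cy3 arrays alone, called in both and under all 44 alternative settings.

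Probe DM12385P1 rose with cadmium as well, with none of the organics called. Its ratios were 1.45, 2.56 and 2.74 in exposed animals and -0.16, 0.43 and -0.13 in controls, with no overlap. The cadmium effect was 2.18 ± 0.31 and the organic mean -0.061 ± 0.16 (95% interval -0.38 to 0.25), a difference of 2.24 ± 0.35 (limma adjusted p = 0.00024). Single organics lay between -0.55 (2,3,4-trichloroaniline) and 0.35 (3,4-dichlorophenol). Among Cy5 arrays alone the difference was 2.25 and not called (limma adjusted p = 0.162). Over the 48 arrays its ratios correlated with those of DM11286P2 at r = 0.73, a description of 2 probes that both rose with cadmium.

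The largest falls in the class were of a different make-up. Probe DM02011P1 stood at -1.44, -2.20 and -2.08 in cadmium-exposed animals and at -0.12, -0.91 and -0.45 in controls, which did not overlap. It fell by 1.42 ± 0.27 with cadmium (limma adjusted p = 0.000765) and had an organic mean of 0.16 ± 0.13. That mean joined a rise of 1.70 ± 0.27 with isobutanol (limma adjusted p = 2.01e-05) to -0.78 with 3-chloropropanol, -0.50 with 3,4-dichlorophenol and 0.21 with 2,3,4-trichloroaniline, none called. The isobutanol controls were at -1.45, -1.91 and -1.15, below the other 4 control groups of the comparison, and isobutanol-exposed animals at 0.013, 0.084 and 0.50. The difference of -1.57 ± 0.30 (limma adjusted p = 0.00273) was not called when isobutanol was left out of the mean (-1.06, limma adjusted p = 0.179), with quantile normalization (-0.92, limma adjusted p = 0.267) or within either dye alone.

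Probe DM01619P2 followed DM02011P1 at r = 0.98 over the 48 arrays. Its ratios were -1.52, -2.37 and -1.97 with cadmium and 0.0045, -1.0 and -0.53 in controls. It fell by 1.5 ± 0.26 with cadmium. Isobutanol raised it by 1.28 ± 0.26, and 3-chloropropanol lowered it, with an effect of -0.91 ± 0.26 (limma adjusted p = 0.0195). The fall is thus shared with 1 organic, and against 3-chloropropanol the difference was -0.59 ± 0.36 and not called (95% interval -1.33 to 0.15). The difference from the organic mean, -1.51 ± 0.29 (limma adjusted p = 0.0025), was lost under the same 4 alternatives as for DM02011P1. The count of the class was 10, 12 and 13 without cadmium control replicates 1, 2 and 3, and 9 and 10 without cadmium-exposed replicates 2 and 3. Of the 24, 8 were called whichever array was left out.

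**Figure D2:**
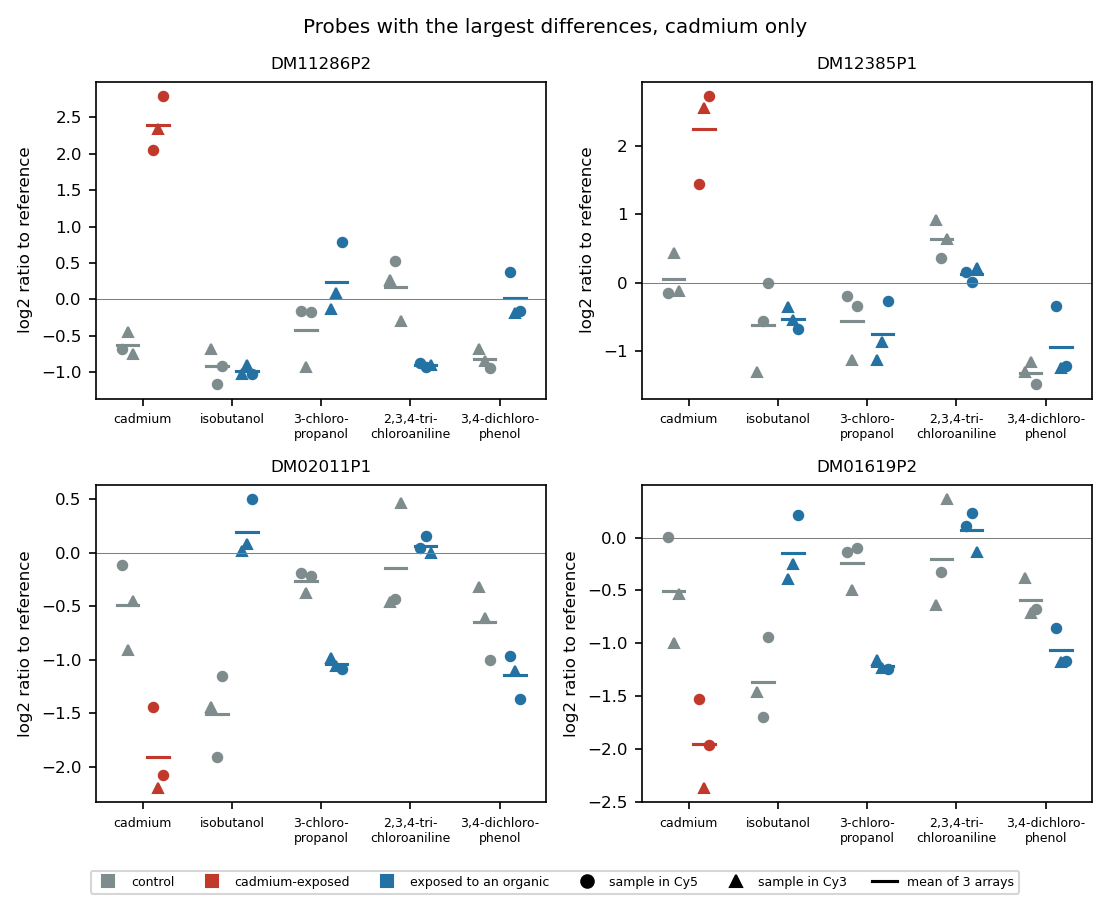
Log2 ratio to the reference (vertical axis) on each of the 30 arrays for 4 cadmium-only probes, by experiment (horizontal axis), with controls in grey, cadmium-exposed samples in red, other exposed samples in blue, circles for Cy5, triangles for Cy3 and bars for the mean of 3 arrays. DM11286P2 and DM12385P1 are high only in the cadmium-exposed arrays, and DM02011P1 and DM01619P2 have their lowest means there and rise with isobutanol from low controls.

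The organics-only class held 13 probes (0.216%) on which the organic mean and the difference were called and cadmium was not. The name covers calls alone: the cadmium effect had the opposite sign to the organic mean on 12 of the 13, and cadmium-exposed and control arrays did not overlap on 7 (53.8%, against 19.3% of all probes). The organic mean was higher for 7 and lower for 6, with a median size of 0.63, and the median size of the cadmium effect was 0.34. For 3 of the 13 the 95% interval of the cadmium effect lay within 0.5 of 0, so for the other 10 a cadmium effect was not called but could still be of that size. Over the whole array that interval lay within 0.5 of 0 on 4087 of 6006 probes. Isobutanol was called on 12 of the 13 (12.6% of all probes), 3-chloropropanol on 7 (8.72%), 2,3,4-trichloroaniline on 4 (3.9%) and 3,4-dichlorophenol on 3 (2.85%). The pairwise difference from cadmium was called on 13 for isobutanol (3.53% of all probes) and 5 for 3-chloropropanol (0.533%). It was called on 1 each for 2,3,4-trichloroaniline (0.716%) and 3,4-dichlorophenol (0.133%). Without isobutanol in the mean the class held 2 probes, and without 3-chloropropanol it held 33. All 4 organics had the sign of their mean on 10 of the 13, against 1371 of all 6006 probes. The F test for differences among them was passed by 7 (8.01% of all probes). The organic mean formed the class, so these counts are a description.

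Probe DM02818P3 rose with 3 of the 4 organics. Its isobutanol ratios were 1.32, 1.43 and 1.46 in exposed and -1.59, -1.40 and -0.61 in control animals, and its 3,4-dichlorophenol ratios 0.98, 1.05 and 0.82 against 0.12, 0.063 and -0.38. Cadmium-exposed animals were at 0.41, 1.03 and 0.46 and their controls at 0.68, 0.57 and 0.76, which overlapped. Isobutanol raised it by 2.54 ± 0.20, 3-chloropropanol by 1.46 ± 0.20 and 3,4-dichlorophenol by 1.07 ± 0.20, all called, and it had 0.53 ± 0.20 with 2,3,4-trichloroaniline (limma adjusted p = 0.157). The organic mean was 1.40 ± 0.10 (limma adjusted p = 1.69e-12), the cadmium effect 0.026 ± 0.20 (95% interval -0.39 to 0.44) and the difference -1.38 ± 0.23 (limma adjusted p = 0.000395). The cadmium controls, at 0.67 ± 0.10 (SD, n = 3), stood above the control means of all 7 other chemicals (-1.20 to 0.16), and so did the cadmium-exposed animals.

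Probe DM01276P2 had the largest difference in this class and was not uniform among the organics. Isobutanol (-2.55 ± 0.48) and 3,4-dichlorophenol (-2.78 ± 0.48) lowered it, both called. It had -1.36 ± 0.48 with 3-chloropropanol (limma adjusted p = 0.0671), and rose by 2.01 ± 0.48 with 2,3,4-trichloroaniline (limma adjusted p = 0.013). The F test among the organics gave a limma adjusted p of 3.23e-05. Cadmium-exposed animals were at 0.07, 0.18 and -0.94 and controls at -1.34, -2.25 and -2.07, which did not overlap. Their effect, 1.64 ± 0.48, just missed the threshold (limma adjusted p = 0.0548), and it differed from that of 2,3,4-trichloroaniline by -0.37 ± 0.68 (95% interval -1.74 to 1.0, not called). The mean of -1.17 ± 0.24 and the difference of 2.81 ± 0.54 (limma adjusted p = 0.00281) have 2,3,4-trichloroaniline on the other side of 0 from the other organics.

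On probes DM06709P1 and DM05953P1 isobutanol was the only organic called, and cadmium lay on the other side of 0 from the organic mean. DM06709P1 also had -0.47, -0.35 and -0.40 with 3-chloropropanol, 2,3,4-trichloroaniline and 3,4-dichlorophenol. The F test among the organics was called on DM05953P1 (limma adjusted p = 0.00499) and not on DM06709P1 (limma adjusted p = 0.0877). DM06709P1 stood at -0.82, -0.98 and -1.12 with isobutanol and 0.18, 0.31 and 0.40 in its controls, which did not overlap, and fell by 1.31 ± 0.22, the only organic called. Its cadmium ratios were -0.011, 0.23 and 0.23 against -0.77, -0.12 and -0.10, an effect of 0.53 ± 0.22 (limma adjusted p = 0.33). The difference from the organic mean was 1.16 ± 0.25 (limma adjusted p = 0.0106). DM05953P1 rose by 1.54 ± 0.26 with isobutanol, from -0.83, -1.67 and -1.32 to 0.21, 0.22 and 0.38, and had -0.29, 0.0048 and 0.34 with 3-chloropropanol, 2,3,4-trichloroaniline and 3,4-dichlorophenol, none called. Its cadmium effect was -0.87 ± 0.26 (limma adjusted p = 0.062), with exposed arrays at -0.82, -1.15 and -0.74 and controls at -0.039, -0.43 and 0.37, and the difference was -1.27 ± 0.29 (limma adjusted p = 0.0255). Both calls of a difference ended without isobutanol in the mean and within each dye alone. That of DM06709P1 also ended without cadmium control replicate 1 or cadmium-exposed replicate 3, and that of DM05953P1 with quantile normalization and without cadmium control replicate 1 or 3 or cadmium-exposed replicate 2. The differences of DM02818P3 and DM01276P2 were not called within either dye alone. The class held 8, 7 and 8 probes without cadmium control replicates 1, 2 and 3, 6 without cadmium-exposed replicate 3 and 26 without 3-chloropropanol control replicate 2. Of the 13, 4 were called whichever array was left out.

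**Figure D3:**
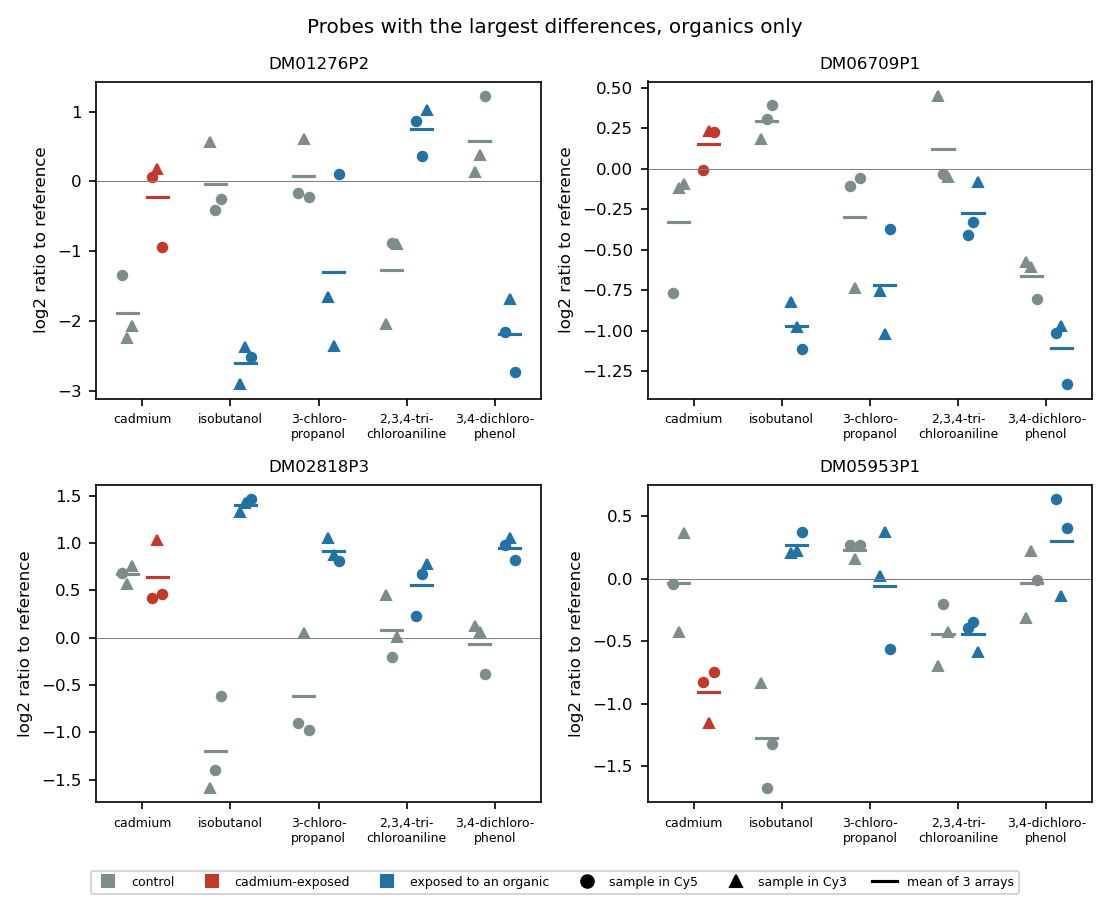
Log2 ratio to the reference (vertical axis) on each of the 30 arrays for 4 organics-only probes, by experiment (horizontal axis), with controls in grey, cadmium-exposed samples in red, other exposed samples in blue, circles for Cy5, triangles for Cy3 and bars for the mean of 3 arrays. Exposed and control arrays lie far apart for isobutanol on all 4 probes, and DM01276P2 moves upward with 2,3,4-trichloroaniline and downward with isobutanol and 3,4-dichlorophenol.

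Cadmium and the organic mean moved 4 probes (0.0666%) in opposite directions: DM02667P2 rose with cadmium and DM07431P1, DM02411P2 and DM01540P1 fell. All 4 differences were called whichever of the 30 arrays was left out, but 3 of the 4 stayed in the class of opposite directions when any 1 of the 6 cadmium arrays was left out or the dye covariate was dropped. The count of the class was 8 without 3-chloropropanol exposed replicate 3, and with quantile normalization it was 3, all lower with cadmium.

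On probe DM07431P1 all 4 organics lay on the opposite side of 0 from cadmium. Cadmium-exposed animals were at -1.09, -0.50 and -1.0 and controls at 0.71, 0.54 and 0.33. Isobutanol-exposed animals were at 1.09, 0.44 and 0.87 against -0.98, -0.56 and -0.38, and 2,3,4-trichloroaniline-exposed animals at 1.26, 1.51 and 1.56 against 0.62, -0.24 and -0.21. In none of these 3 experiments did the groups overlap, while with 3-chloropropanol they did. It fell by 1.32 ± 0.23 with cadmium (limma adjusted p = 0.000343), rose by 1.37, 0.74 and 1.46 with isobutanol, 3-chloropropanol and 2,3,4-trichloroaniline, and had 0.79 ± 0.23 with 3,4-dichlorophenol (limma adjusted p = 0.059). The difference was -2.41 ± 0.26 (limma adjusted p = 1.12e-07), and all 4 pairwise differences were called, from -2.78 to -2.06. The cadmium controls, 0.52 ± 0.19, stood above the other 7 control means (-0.64 to 0.16) and the exposed animals, -0.86 ± 0.32, below them. Among Cy3 arrays alone the difference was -2.06 (limma adjusted p = 0.0546) and among Cy5 arrays alone -2.79 (limma adjusted p = 6.26e-05).

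Probe DM02411P2 fell with cadmium and was called lower with none of the organics. Its cadmium ratios were -1.21, -1.19 and -1.16 in exposed and -0.33, 0.093 and 0.11 in control animals, while all 24 arrays of the organics lay above the exposed ones. The fall was 1.13 ± 0.13 (limma adjusted p = 3.86e-07). It rose by 0.57 ± 0.13 with 2,3,4-trichloroaniline, had 0.44 ± 0.13 with 3,4-dichlorophenol (limma adjusted p = 0.0612), and stood at -0.054 and 0.03 with the alcohols. The organic mean, 0.25 ± 0.065, thus came mostly from the chlorinated benzenes. The difference was -1.37 ± 0.15 (limma adjusted p = 1.05e-07), and all 4 pairwise differences were called. Within Cy5 arrays alone it was -0.99 and not called (limma adjusted p = 0.0817).

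Probe DM02667P2 had the largest difference in the table, 4.44 ± 0.57 (limma adjusted p = 4.87e-06). Cadmium took it from -1.89, -1.17 and -1.66 to 1.29, 1.83 and 1.28. Isobutanol took it from 3.01, 2.64 and 2.78 to -0.64, -0.64 and -0.80. The cadmium controls were the lowest of the 8 control means and the isobutanol controls the highest, and both exposed groups lay inside the range of the other controls. The effects were 3.11 ± 0.51 with cadmium, -3.58 ± 0.51 with isobutanol and -1.81 ± 0.51 with 3,4-dichlorophenol, all called, while 3-chloropropanol (-0.33) and 2,3,4-trichloroaniline (0.42) were not. This probe also varied widely within groups, with an SD of 1.28 among the 2,3,4-trichloroaniline-exposed arrays and 1.15 among the 3-chloropropanol controls. Within Cy5 arrays alone the difference was 3.74 and not called (limma adjusted p = 0.151).

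Probe DM01540P1 had the smallest opposite difference, -1.0 ± 0.16 (limma adjusted p = 0.00024). Cadmium-exposed arrays were at 0.052, -0.40 and -0.055 and controls at 0.59, 0.055 and -0.019, which overlapped. The fall of 0.51 ± 0.14 with cadmium (limma adjusted p = 0.0384) depends on the dye covariate: exposed and control arrays of the same dye did not overlap. Isobutanol raised it by 0.64 ± 0.14 and 3-chloropropanol by 0.62 ± 0.14. Without the dye covariate the difference was -0.84 and not called (limma adjusted p = 0.443).

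**Figure D4:**
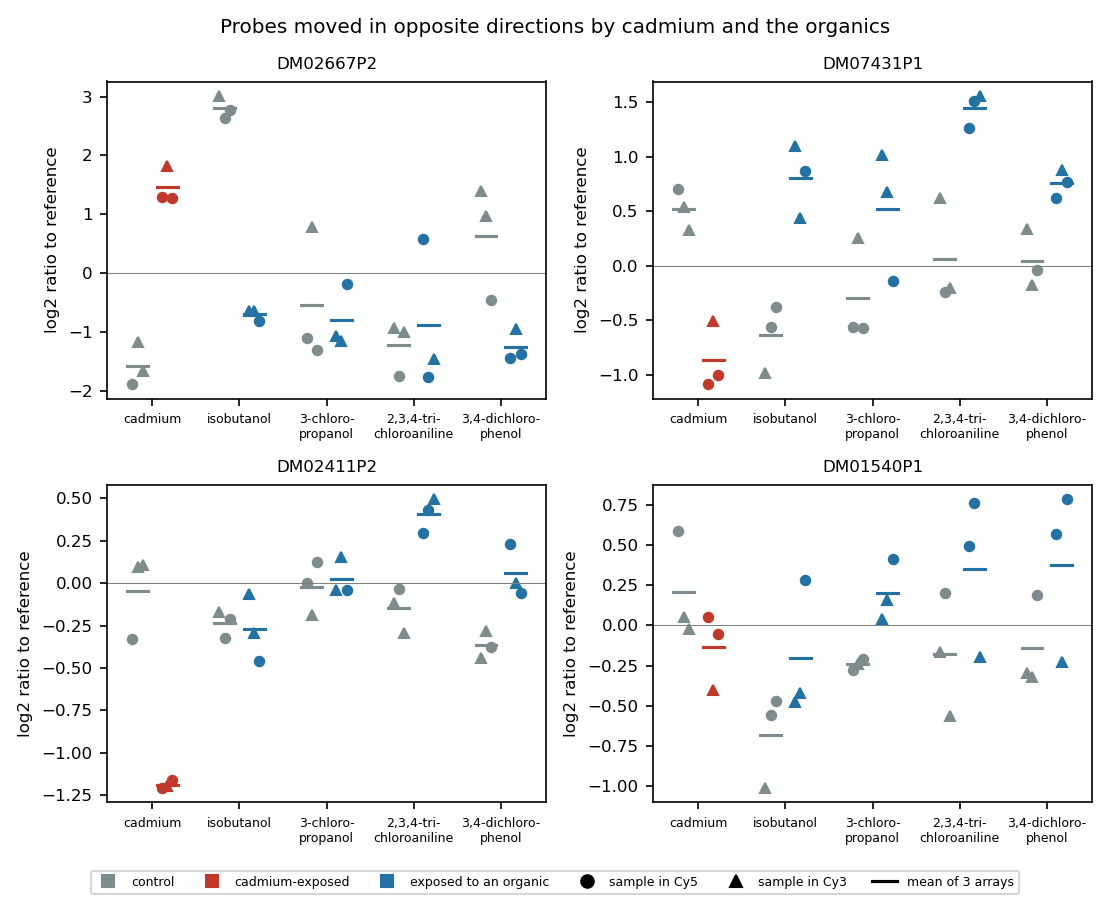
Log2 ratio to the reference (vertical axis) on each of the 30 arrays for the 4 probes moved in opposite directions, by experiment (horizontal axis), with controls in grey, cadmium-exposed samples in red, other exposed samples in blue, circles for Cy5, triangles for Cy3 and bars for the mean of 3 arrays. DM07431P1 falls with cadmium and has a higher exposed than control mean with all 4 organics, while on DM02667P2 the cadmium and isobutanol groups cross from opposite extremes.

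A wider reading counts probes on which cadmium and at least 1 organic were each called with opposite signs and the pairwise difference was called. This held for 18 probes, 6 higher and 12 lower with cadmium. The opposite partner was isobutanol on 14, 2,3,4-trichloroaniline on 4, 3-chloropropanol on 3 and 3,4-dichlorophenol on 1. Of the 18, 4 were the probes above, 10 belonged to the cadmium-only class, and 4 had no called difference from the organic mean. The largest pairwise differences were on probes already given, with DM02667P2 at 6.69 ± 0.73 (limma adjusted p = 4.78e-07) and DM02011P1 at -3.12 ± 0.38 (limma adjusted p = 1.75e-06) against isobutanol, as was DM01619P2 at -2.78 ± 0.36 (limma adjusted p = 5.45e-06), and DM11286P2 at 4.08 ± 0.36 (limma adjusted p = 1.48e-09) against 2,3,4-trichloroaniline. On 7 of the 14 probes opposite to isobutanol, its control mean lay outside the range of the other 7 control means and its exposed mean inside it, which was so for 1261 of all 6006 probes.

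On 8 probes (0.133%) cadmium and the organic mean moved the same way but to an unequal extent, 7 higher and 1 lower. Each time the cadmium effect was larger in size than the organic mean. Single organics differed: all 4 had the same sign on 5 of the 8, and 5 of the 8 had only 1 organic called. The effect of isobutanol on DM05690P1 and of 2,3,4-trichloroaniline on DM10770P3 exceeded that of cadmium, and on the remaining probes of this class no organic did so. The median cadmium effect was 1.24 in size and the median organic mean 0.46. Probe DM08571P2 was at 1.82, 2.33 and 2.58 with cadmium and -0.36, -0.56 and -0.38 in controls, far apart. It rose by 2.67 ± 0.21 with cadmium and by 0.72, 0.93, 1.82 and 1.25 with isobutanol, 3-chloropropanol, 2,3,4-trichloroaniline and 3,4-dichlorophenol, all called. The difference was 1.49 ± 0.24 (limma adjusted p = 0.00024), and it was not called with quantile normalization (0.99, limma adjusted p = 0.148) or within Cy5 arrays alone (1.26, limma adjusted p = 0.87).

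Probe DM10770P3 rose with cadmium and with 1 organic. The rise was 1.96 ± 0.28 with cadmium, to 1.26, 1.27 and 1.20 from -0.69, -1.02 and -0.48, and 2.56 ± 0.28 with 2,3,4-trichloroaniline, to 1.44, 1.81 and 1.89 from -0.84, -1.0 and -0.75. Neither pair of groups overlapped, and the pairwise difference was -0.60 ± 0.40 (95% interval -1.40 to 0.20, not called). It had 0.27, -0.013 and -0.52 with isobutanol, 3-chloropropanol and 3,4-dichlorophenol, none called. Its difference from the organic mean, 1.38 ± 0.31 (limma adjusted p = 0.0242), was lost under 12 of 44 alternatives, among them leaving out cadmium control replicates 1 and 2 or any of the 3 cadmium-exposed replicates, which gave 1.25 to 1.41. The 1 probe lower in this class, DM00533P2, stood at -0.41, -0.57 and -0.39 with cadmium and 0.32, 0.11 and 0.13 in controls, which did not overlap. It fell by 0.74 ± 0.11 with cadmium and had an organic mean of -0.21 ± 0.056. Its difference was -0.54 ± 0.13 (limma adjusted p = 0.0262), called against none of the 4 organics singly, and it ended without any of the 3 cadmium controls or cadmium-exposed replicates 1 and 3.

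Each organic was also set against cadmium by itself. The cadmium effect differed from that of isobutanol on 212 probes (3.53%), 91 higher and 121 lower, from that of 2,3,4-trichloroaniline on 43 (0.716%), from that of 3-chloropropanol on 32 (0.533%) and from that of 3,4-dichlorophenol on 8 (0.133%). With p-values adjusted over the 4 pairs together, the counts were 131, 47, 41 and 21. At an unadjusted p under 0.05 the counts were 745, 634, 646 and 409, where chance gives 300.3. Of the calls adjusted within a pair, 18 of 32 were higher for 3-chloropropanol, 20 of 43 for 2,3,4-trichloroaniline and 6 of 8 for 3,4-dichlorophenol, and with quantile normalization 5 of 11, 17 of 68 and 8 of 17. The typical 95% interval of a pairwise difference was ± 0.39 to ± 0.40, so a small count does not show that 2 chemicals act alike. Isobutanol did not lead under every setting: with array weights it had 879 against 1831 for 3-chloropropanol, and within Cy5 arrays alone 30 against 74. The organics themselves differed by the F test on 481 probes (8.01%). Leaving out arrays moved these counts: isobutanol had 135 without its control replicate 2 or without cadmium-exposed replicate 3. The count for 3-chloropropanol was 162 without its control replicate 2, 130 without its exposed replicate 3, 21 and 20 without its control replicates 1 and 3, and 19 without cadmium-exposed replicate 2. The count for 2,3,4-trichloroaniline was 17 without its control replicate 1, 21 without its exposed replicate 2, 23 and 28 without cadmium control replicates 1 and 3, and 12 and 28 without cadmium-exposed replicates 2 and 3. The count for 3,4-dichlorophenol was 18 without its exposed replicate 1, 13 without cadmium-exposed replicate 1 and 21 without 3-chloropropanol exposed replicate 3. The F test gave 767 and 811 without 3-chloropropanol control replicate 2 and exposed replicate 3.

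The 3 anilines were no part of the contrast, though their arrays entered the fit, and their mean effect on these probes was small at the median. Their mean effect had the sign of the cadmium effect on 7 of the 24 cadmium-only probes (29.2%), against 49.5% of all probes, and the sign of the organic mean on 4 of the 13 organics-only probes (30.8%), against 47.5%. On the 8 probes of unequal extent it had the sign of both on 5 (62.5%), and on the 4 opposite probes the sign of cadmium on 2. The median size of the aniline mean was 0.044 on the cadmium-only class, 0.071 on the organics-only class and 0.058 over all probes. On 1 of the 49 probes, in the cadmium-only class, at least 1 of these anilines was called on its own. This probe, DM07251P2, rose by 2.28 with cadmium and by 1.53 with 4-chloroaniline (limma adjusted p = 2.44e-05). It also rose by 1.49 with 2,3,4-trichloroaniline (limma adjusted p = 1.11e-05), and its aniline mean of 0.71 was called (limma adjusted p = 0.00185). The median residual SD of the experiments with the 3 anilines left out was 0.15 to 0.18, and the typical 95% interval of their mean effect was ± 0.16.

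**Figure D5:**
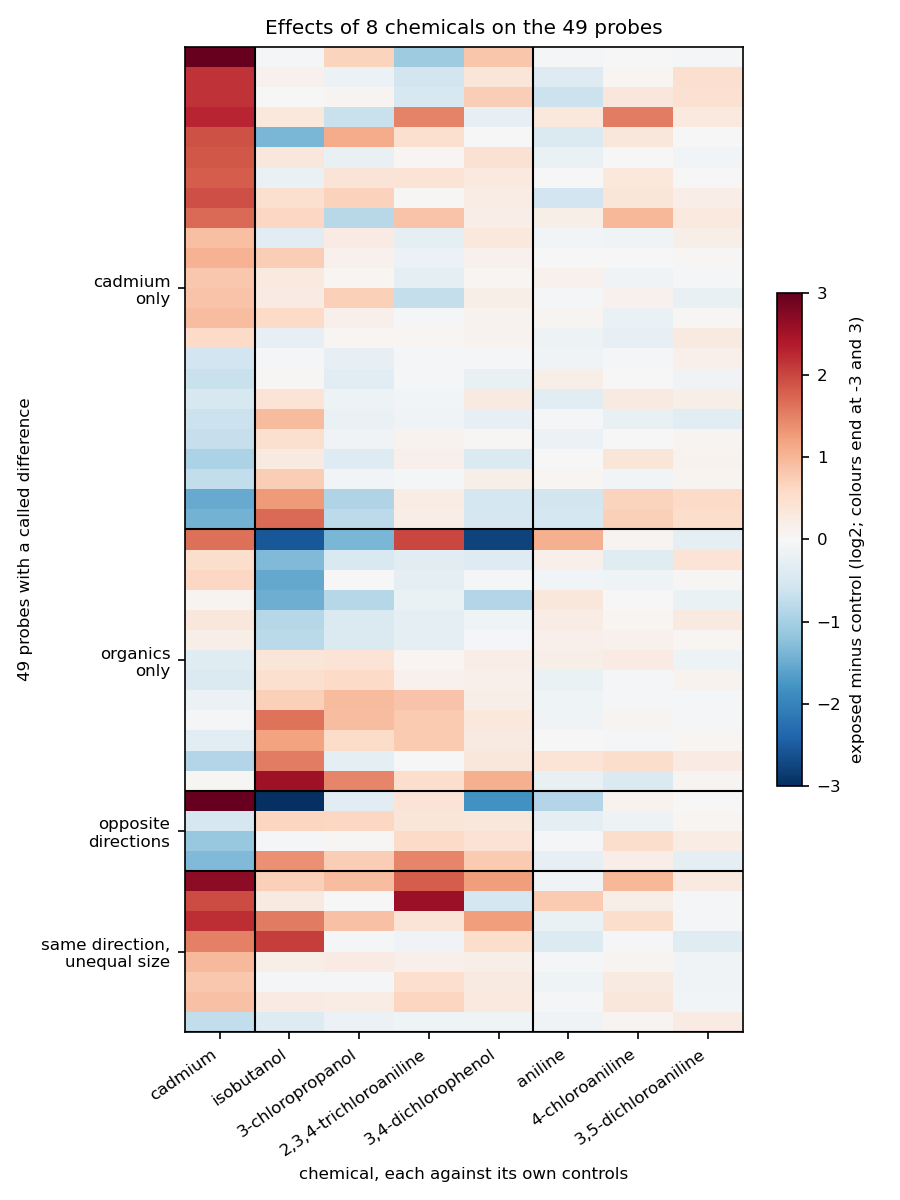
Effects (log2, colours limited to -3 and 3) of 8 chemicals, each against its own controls, in columns, on the 49 probes with a called difference, in rows grouped by class and ordered by the difference. In most of the organics-only rows, but not all, the isobutanol column carries the strongest colour. The 3 aniline columns at the right are pale apart from single cells.

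Control levels differed between the experiments, so it was recorded whether cadmium took a probe out of the range of unexposed animals. On 15 of the 24 cadmium-only probes (62.5%) only the cadmium-exposed mean lay outside the range of the other 7 control means. This held for 16.9% of all probes and for 56.5% of the 177 called for cadmium, so it is not particular to this class. On 3 of the 24 (12.5%) the reverse held, with only the cadmium control mean outside, against 7.04% of all probes and 5.08% of the 177. Of the 4 opposite probes, DM02411P2 was of the first kind and DM02667P2 and DM01540P1 of the second. The 3 exposed and 3 control cadmium arrays did not overlap on any of the 24 cadmium-only probes or the 8 of unequal extent. There was also no overlap on 7 of the 13 organics-only probes. Of all probes 19.3% had no overlap, and of the 177 called for cadmium 97.2%. These counts use the arrays that formed the classes and are given as a description. All 49 differences kept their sign within the Cy5 and within the Cy3 arrays, a share raised by the choice of probes on the same arrays, against 53.7% of all probes.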

How the data were processed

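Total RNA of 30 pooled animals per sample (100 ng) and a universal reference were hybridised on 2-colour Agilent arrays, with the sample in Cy5 on 15 of the 30 arrays compared and both dyes in each group. The authors normalized the log2 ratios, centred near 0 on each array, and deposited them for 48 arrays. The unit was inferred from the values: the lowest, -7.40, is too large in size for a log10 ratio of a 16-bit scanner (4.82 at most), while a natural log is not excluded. The sources used here give no method of background correction, normalization or probe filtering.

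A limma model (version 3.58.1, R 4.3.3) of the 6006 Daphnia probes had a mean for each of 16 groups with the dye as covariate (31 residual degrees of freedom). The 27 control rows were left out. Array number limits the precision. Each contrast was adjusted by Benjamini-Hochberg. Dye was called on 2115 probes (35.2%). The model was tested on simulated data. Plots used Python 3.11.15 and matplotlib 3.10.9. The compared chemicals, classes and rules were chosen with earlier results of these data known. Within each class and sign of the difference, the 2 probes with the largest difference are named, all 4 of the opposite class, and for the wider class the 2 of each sign with the largest pairwise difference. Control pairs and same-numbered samples were checked for likeness.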

Additional observations from a re-analysis of the deposited data

How the results depend on the processing

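Among the named probes, 606 of 660 differences recomputed under alternatives kept their direction and their call, 54 kept the direction without a call, and 0 reversed. All 49 called differences kept their sign under every alternative. These probes, the named ones among them, were chosen for their differences on the same arrays, and 30 of the 44 alternatives left out a single array. Kept signs and calls were thus likely from the start and are given as a description. The counts moved far more, and the causes were not tested. In some of the alternatives fewer arrays entered the fit. With array weights the difference from the organic mean was called on 553 probes (49 of 49 shared with the main calls), 140 by cadmium only, 276 by the organics only and 39 opposite. The pairwise counts against isobutanol, 3-chloropropanol, 2,3,4-trichloroaniline and 3,4-dichlorophenol were then 879, 1831, 431 and 204, and the F test among the organics gave 2694. With arrays scaled to equal spread the difference gave 107 (47 shared), cadmium only 63, organics only 8, isobutanol 114, 2,3,4-trichloroaniline 87, 3,4-dichlorophenol 42 and the F test 156. With quantile normalization the difference gave 34 (23 shared; 8 of the 24 cadmium-only and 4 of the 13 organics-only probes kept their class), organics only 8, the 4 pairs 62, 11, 68 and 17, and the F test 147. The samples share only a replicate number: of 24 same-numbered pairs of a control and an exposed array, 7 correlated above 0.1 (-0.30 to 0.30), and no experiment had all pairs above it. With the replicate block the difference gave 31 (29 shared), organics only 8, isobutanol 134, 3-chloropropanol 15 and the F test 267. Within Cy5 arrays alone the difference gave 10, cadmium only 3, organics only 3, opposite 2, the 4 pairs 30, 74, 4 and 3, and the F test 166. Within Cy3 arrays alone the difference gave 7, cadmium only 5, organics only 0, opposite 1, isobutanol 92, 3-chloropropanol 12, 2,3,4-trichloroaniline 9 and the F test 103. Without the dye covariate 2,3,4-trichloroaniline gave 19. With only the 30 arrays fitted, the difference gave 51 (38 shared), 3-chloropropanol gave 21 and the F test 811, and with 3-chloropropanol control replicates 1 and 3 counted as 1 sample that pair gave 21. Without isobutanol in the mean the difference gave 27 and organics only 2, and without 3-chloropropanol 74 and 33. Leaving out single arrays gave 24 to 69 for the difference, 9 to 29 for cadmium only, 6 to 26 for organics only, 3 to 8 for opposite directions, 135 to 228 for isobutanol, 19 to 162 for 3-chloropropanol, 12 to 61 for 2,3,4-trichloroaniline, 7 to 21 for 3,4-dichlorophenol and 328 to 811 for the F test. Signal over background is not in the table used here, so dim probes could not be set apart.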

Other observations

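The 27 control rows, which carry no Daphnia probe, were put through the same comparison. They do not hold the variation of Daphnia transcripts between samples, so they cannot give the rate of false calls among the Daphnia probes. The difference between the cadmium effect and the organic mean was called on 0 of 27 (limma) and had an unadjusted p under 0.05 on 0. The largest was 0.27 in size, and the lowest unadjusted limma p was 0.0585 (adjusted p = 0.791 at the lowest). On 7 of these rows the sign of the ratio followed the dye on all 48 arrays.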
